A study of Mus musculus with 24 samples.

Results

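The 10 genes described here encode the MCM helicase and the proteins that load it onto DNA: *Mcm2*, *Mcm3*, *Mcm4*, *Mcm5*, *Mcm6*, *Mcm7*, *Mcm10*, *Cdc6*, *Cdt1* and *Orc1*. They were chosen by function, through the gene symbols of the identifiers in the count tables, and all 10 of them were found among the 49315 genes listed. RNA was sequenced from primary astrocytes, the main glial cells of the brain, which were isolated from the cortex of wild type C57BL/6J mouse embryos late in gestation and grown in serum-containing medium. Cells were mock-irradiated (0 Gy) or exposed to 0.1 or 2 Gy X-rays and harvested 6 h or 24 h later, which gave 6 groups of 4 libraries, numbered as replicates 1 to 4. The study isolated new astrocytes for each experiment and pooled the embryos of a pregnant mouse, so that a library holds cells of several embryos and not of 1 animal. The labels do not say what libraries of the same number share.

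Before a cell copies its DNA, the origin recognition complex, of which ORC1 is the largest subunit, binds the sites where copying can start. CDC6 and CDT1 then join it and load the ring of MCM2 to MCM7 around the DNA in an inactive form, a step called licensing that takes place from the end of mitosis through G1 phase. MCM10 acts later, when the loaded ring becomes the active helicase. Transcription of these genes is known to follow the cell cycle through E2F transcription factors, with low levels in resting cells, and most cells of the adult brain do not divide.

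Because E2F factors are the known regulators of this family, the E2F motifs around the start sites of the members are shown first. RefSeq windows from 250 bases before to 50 bases after a gene's start (build GRCm38.p6) held an entry for 9 of the 10 members, all but *Mcm4*. The starts are those of RefSeq and can differ from the ends of the gene spans in the count tables. The windows of *Cdc6* and *Mcm7* lie inside those spans. The motifs TTTCCCGC, TTTCGCGC, TTTGCCGC and TTTGGCGC were searched on both strands. *Mcm7* had 2 windows, which made 10 windows of members. At least 1 of the motifs was found in 7 of these 10 windows, each of a different member, and in 2.26% of the 32851 windows of all genes. The 10 elements are printed 5′ to 3′ on the strand of the gene, with the motif in capitals.
Mcm3, minus strand, chr1:20820275-20820304: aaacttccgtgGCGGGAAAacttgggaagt
Mcm3, minus strand, chr1:20820263-20820292: cgggaaaacttgggaagtTTTGGCGCcaag
Mcm5, plus strand, chr8:75109347-75109376: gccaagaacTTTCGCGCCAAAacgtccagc
Mcm6, minus strand, chr1:128359795-128359824: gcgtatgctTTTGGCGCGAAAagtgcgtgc
Mcm6, minus strand, chr1:128359734-128359763: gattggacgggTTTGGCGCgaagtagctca
Mcm7, minus strand, chr5:138172030-138172059: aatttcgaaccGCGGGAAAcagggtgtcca
Mcm7, minus strand, chr5:138171849-138171878: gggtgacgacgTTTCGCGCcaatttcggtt
Cdc6, plus strand, chr11:98908002-98908031: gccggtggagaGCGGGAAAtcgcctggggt
Cdt1, plus strand, chr8:122568035-122568064: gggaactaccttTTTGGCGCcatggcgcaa
Orc1, plus strand, chr4:108579416-108579445: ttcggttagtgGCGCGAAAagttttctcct

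In *Mcm5* and in the first element of *Mcm6*, matches on opposite strands overlap and give a run of 12 bases in capitals. The letters searched were not in the windows of *Mcm2* and *Mcm10*. Other motifs of cell cycle promoters were searched on both strands in the same windows. The CHR motif (TTTGAA or TTCGAA) was found for *Mcm2* and *Mcm7*, in 2 of the 10 windows of members, and in 19.2% of all windows. The NF-Y motif CCAAT was found in 8 of the 10 (37.4% of all windows), and the SP1 motif GGGCGG likewise in 8 (35.7%). In *Mcm7* the second E2F match shares its last base with a CCAAT match. A match describes the letters of a sequence and does not show that a factor binds there.

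The total count per library was between 14742855 and 38194800, and the shallowest library was replicate 1 of the group at 2 Gy and 24 h. All 12 astrocyte markers examined passed the filter on low counts, with a summed level of 2851 to 3978 CPM (counts scaled to a common library total) in the 24 libraries, although *S100b* had only 24 to 159 counts. The summed level of 10 microglia markers was 1610 to 2727 CPM in replicates 1, 3 and 4 but 283 to 331 CPM in the 6 libraries of replicate 2. Replicate 2 thus stands apart from the others in every group. Where edgeR fits within replicate numbers called members on adjusted p alone, the number called without replicate 2 is given. Calls of other single genes, of DESeq2, of the fit of all 24 libraries and of fits with an offset are given with it only. Markers of fibroblasts and vessels (8 of 10 passed the filter) summed to 3530 to 7847 CPM, those of neural progenitors (6 of 8) to 1508 to 3004 CPM, those of the oligodendrocyte lineage (9 of 10) to 410 to 898 CPM and those of neurons (9 of 10) to 404 to 728 CPM. *Lum* and *Cldn5*, *Hes5* and *Eomes*, *Mog*, and *Nefl* were the markers that did not pass. The fibroblast and vessel sum was mostly *Acta2* (median 4190 CPM), ahead of *Col1a1* (388 CPM) and *Col1a2* (243 CPM). *Dcn* and *Pecam1* of this list had medians of 0.679 and 0.63 CPM. The neural progenitor sum was mostly *Nes* (median 1490 CPM). Among neuron markers *Stmn2* and *Map2* led (203 and 187 CPM), with *Rbfox3* at 0.196 CPM. The sums follow their most abundant genes and do not give shares of cell types.

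All 10 members passed the filter in all comparisons, from *Orc1* with 14 to 97 counts per library to *Mcm6* with 620 to 2795. Per kb of exon, the level in mock-irradiated cells at 24 h was highest for *Mcm4* (16.7 CPM per kb ± 1.94, SD, n = 4) and *Mcm6* (16.1 ± 0.538), whose libraries overlapped. *Mcm7* (11.7 ± 1.91), *Mcm3* (10.9 ± 1.64) and *Mcm5* (8.80 ± 2.28) followed and overlapped from one to the next, and *Mcm2* (5.24 ± 1.29) was the lowest subunit of the ring. The factors that load or activate the ring were less abundant, with *Cdt1* at 4.52 CPM per kb ± 1.59, *Cdc6* at 1.87 ± 0.393, *Mcm10* at 1.23 ± 0.179 and *Orc1* at 0.872 ± 0.302. The libraries of neighbours in this order did not overlap between *Mcm6* and *Mcm7*, between *Cdt1* and *Cdc6* and between *Cdc6* and *Mcm10*, and overlapped at every other step. Exon lengths count every annotated exon of a gene, so that a gene with long rare exons appears lower than its main transcript.

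**Figure D1:**
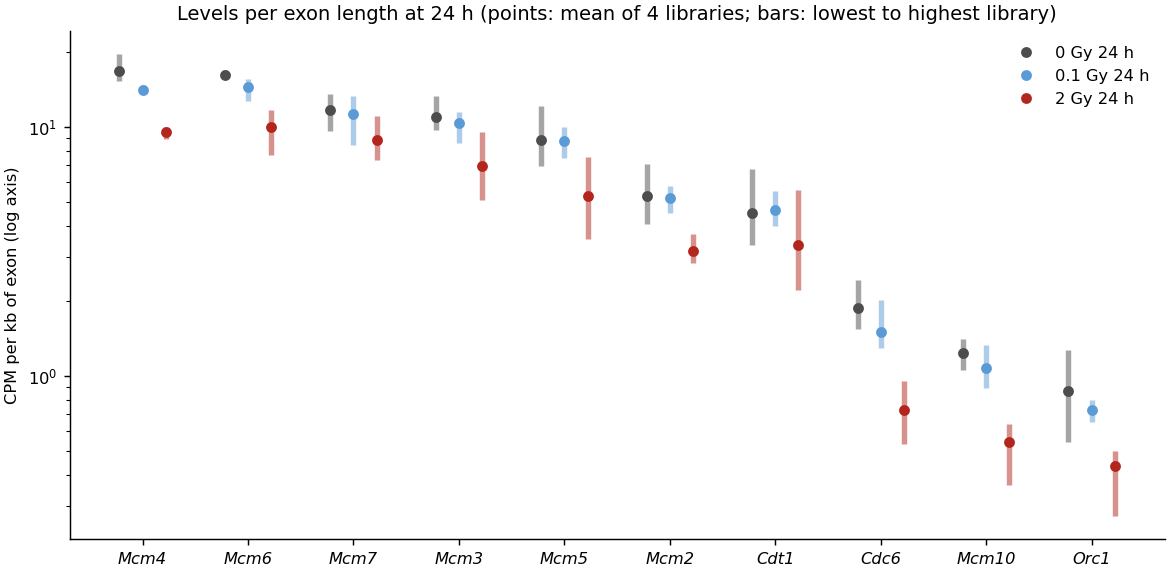
Level of each licensing gene per kb of exon at 24 h on a log axis, in mock-irradiated cells and after 0.1 and 2 Gy. Points are means of 4 libraries and bars run from the lowest to the highest library. *Mcm4* and *Mcm6* lead at 0 Gy with 16.7 and 16.1 CPM per kb, and *Orc1* is last in all 3 groups (0.872, 0.726 and 0.435 CPM per kb).

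Setting 2 Gy against 0 Gy at 24 h asks whether a high dose of X-rays altered the expression of the licensing genes a day later. Each of the 10 genes had a lower mean after 2 Gy, between 39.0% (*Cdc6*) and 75.8% (*Mcm7*) of the mean CPM of mock-irradiated cells. The difference was largest for *Cdc6*, *Mcm10* and *Orc1*, which were at 39.0%, 44.0% and 49.8%. It was intermediate for *Mcm4*, *Mcm5*, *Mcm2*, *Mcm6* and *Mcm3*, at 57.1% to 63.9%, and smallest for *Cdt1* and *Mcm7*, at 74.4% and 75.8%. The place of *Cdt1* in this order rests on replicate 3, since its log2 fold change without a block was -0.43 with all libraries, -0.18 without replicate 3 of the mock-irradiated group and -0.76 without replicate 3 of the 2 Gy group. These are levels in RNA of whole cultures, in which fewer cells that express a gene and less RNA per cell cannot be told apart.

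Among the subunits of the ring, *Mcm4* had 54.5, 69.99, 57.9 and 56.7 CPM in replicates 1 to 4 of mock-irradiated cells and 33.6, 31.9, 35.7 and 35.2 CPM after 2 Gy. *Mcm6* had 73.6, 75.7, 78.7 and 73.2 CPM without irradiation and 42.2, 35.8, 54.5 and 53.5 CPM after 2 Gy. In both genes every irradiated library was below every mock-irradiated one, by a wide margin. *Mcm2*, which like the other subunits is an ATPase of the ring, had 28.3, 36.0, 49.0 and 32.6 CPM against 20.2, 19.7, 25.9 and 22.5 CPM. *Mcm3* had 36.3, 38.2, 49.9 and 38.9 CPM against 20.2, 19.0, 35.8 and 29.4 CPM. The groups did not overlap for these genes either, although replicate 3 after 2 Gy came within 1 CPM of the lowest mock-irradiated library in *Mcm3*. *Mcm5* had 27.6, 31.8, 48.4 and 32.7 CPM against 14.2, 17.6, 30.02 and 22.1 CPM. *Mcm7* had 42.5, 57.8, 59.9 and 46.7 CPM against 32.6, 38.9, 48.8 and 36.5 CPM. For *Mcm5* and *Mcm7* the groups overlapped, in each case through replicate 3 at 2 Gy, which was above replicate 1 of the mock-irradiated cells.

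*Cdc6*, the ATPase that joins the origin recognition complex to load the ring, had 8.64, 12.7, 8.05 and 9.77 CPM in mock-irradiated cells and 2.79, 4.28, 3.21 and 4.98 CPM after 2 Gy. *Mcm10* had 8.14, 10.5, 10.8 and 8.42 CPM against 2.79, 4.46, 4.48 and 4.94 CPM. In both genes the highest irradiated library lay far below the lowest mock-irradiated one. *Orc1*, with few reads, had 2.97, 4.43, 2.87 and 1.88 CPM against 0.954, 1.61, 1.74 and 1.75 CPM, and its groups were separate by a narrow margin set by replicate 4. *Cdt1*, the partner of CDC6 that brings the ring to the origin, had 10.98, 10.5, 21.3 and 14.0 CPM against 7.84, 6.92, 17.4 and 10.03 CPM, and its groups overlapped through replicate 3, which was the highest library in both.

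**Figure D2:**
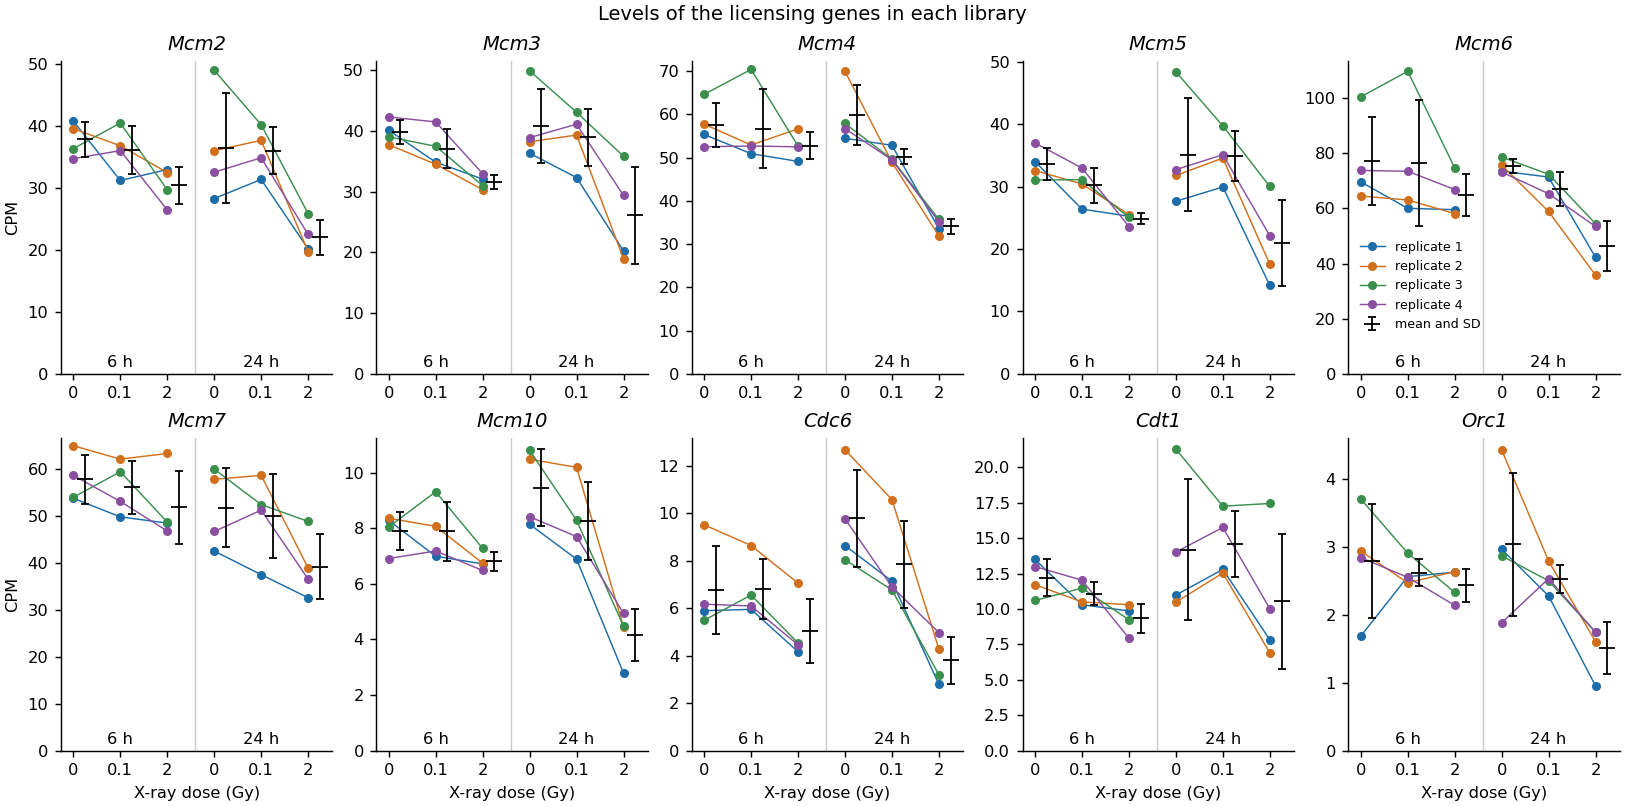
CPM of each licensing gene in each of the 24 libraries, by X-ray dose (Gy) at 6 h and 24 h after exposure, with coloured lines joining libraries of the same replicate number and black marks for the group mean and SD (n = 4). At 24 h the 2 Gy libraries of *Cdc6* sit at 2.79 to 4.98 CPM, all under the mock-irradiated ones at 8.05 to 12.7 CPM, whereas those of *Cdt1* overlap.

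The libraries of 2 Gy and 0 Gy at 24 h did not overlap for 7 of the 10 members (*Mcm2*, *Mcm3*, *Mcm4*, *Mcm6*, *Mcm10*, *Cdc6* and *Orc1*), all lower after 2 Gy, compared with 1.9% of all 17353 genes with a level. For each of the 7, the two-sided exact permutation test gave p = 0.0286, the smallest value that 4 against 4 libraries allow. For *Mcm5*, *Mcm7* and *Cdt1* this p was 0.0571, 0.0857 and 0.257. Within pairs of libraries of the same replicate number, all 10 members were lower after 2 Gy in 4 of 4 pairs, as were 20.6% of all genes.

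Across all genes, edgeR's quasi-likelihood test without a replicate block called none of the 10 members at an adjusted p under 0.05, and 0.0% of the 15892 genes tested as lower. Of the members, 8 had an unadjusted p under 0.05, compared with 3.59% of all genes, and DESeq2 without a block called 4 (*Mcm4*, *Mcm6*, *Mcm10* and *Cdc6*), where it called 0.339% of 29803 unfiltered genes as lower. Libraries of the same number deviated together from their group means, and a fit that blocks on the number compares libraries within each number. With this block, all 10 members were called lower, compared with 6.69% of all genes. The log2 fold change was -1.35 (SE 0.148, adjusted p = 0.0028) for *Cdc6* and -1.18 (SE 0.15, adjusted p = 0.00482) for *Mcm10*. These were the 2 members called when a log2 fold change of at least 1 in size was also required, which 0.61% of all genes met. For *Orc1* it was -0.95 (SE 0.267, adjusted p = 0.0479), the call nearest to the threshold. In the ring it was -0.80 for *Mcm4*, -0.76 for *Mcm5*, -0.71 for *Mcm6*, -0.70 for *Mcm2* and -0.67 for *Mcm3*, with SE of 0.0991 to 0.117 and adjusted p of 0.00507 to 0.0143. It was smallest for *Cdt1* (-0.45, SE 0.108, adjusted p = 0.0301) and *Mcm7* (-0.40, SE 0.088, adjusted p = 0.0261).

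How many members the blocked fit called depended on which replicate numbers were included. Without replicate 2, the number with few microglia markers, *Cdc6* alone was called (adjusted p = 0.0418), the other adjusted p reached 0.226, and 0.376% of all genes were called lower. Without replicate 1, 5 members and 0.68% of all genes were called lower, and without replicate 4, 7 members and 0.875%. Without replicate 3 all 10 were called, at adjusted p of 0.00678 or less, together with 16.4% of all genes. In either direction the number of genes called was 143, 69, 5291 and 245 without replicates 1 to 4, compared with 2100 with all of them. Without replicate 2 the log2 fold change was -1.29 for *Cdc6*, -1.17 for *Mcm10*, -0.70 for *Mcm4* and -0.35 for *Mcm7*. That of *Orc1* moved most, between -0.76 without replicate 2 and -1.23 without replicate 4.

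**Figure D3:**
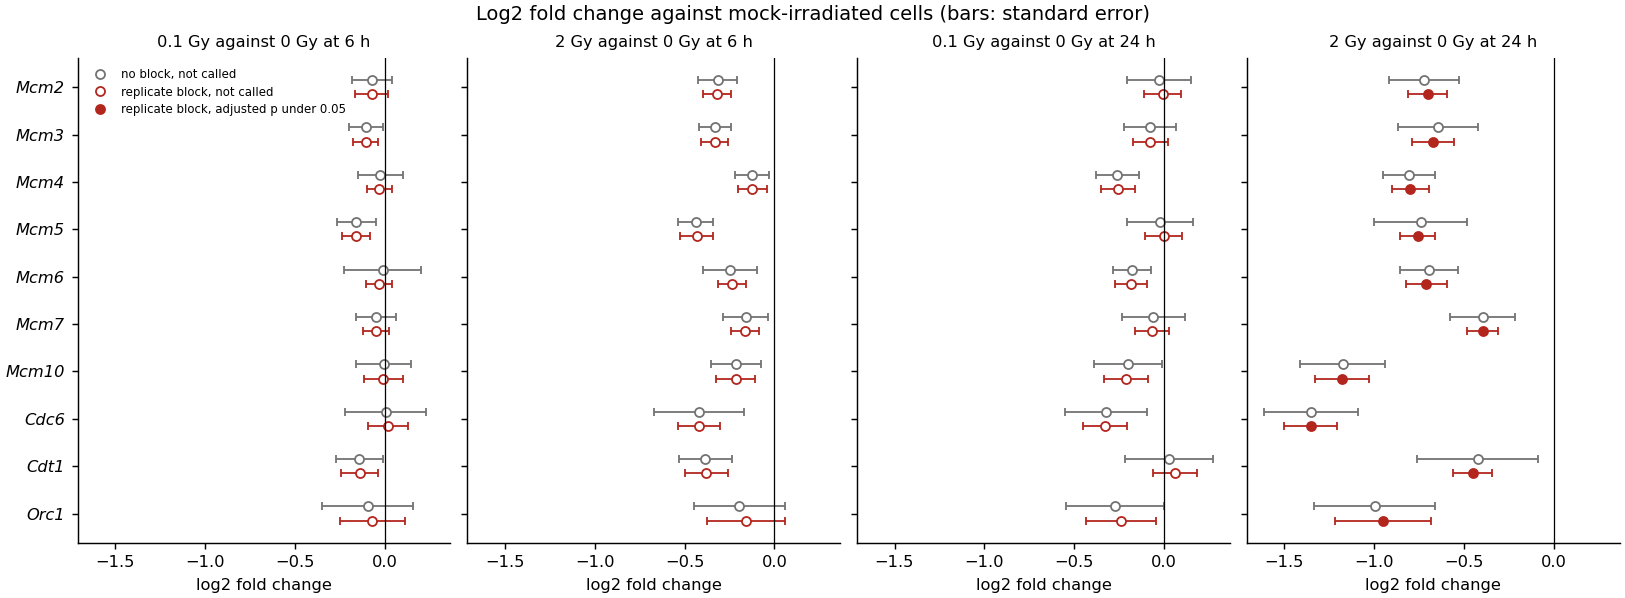
Log2 fold change of each licensing gene against mock-irradiated cells of the same time after 0.1 and 2 Gy, with and without the replicate block, bars for the standard error and filled points for an adjusted p under 0.05 (edgeR). At 24 h after 2 Gy all 10 genes lie below 0, from -0.40 for *Mcm7* to -1.35 for *Cdc6*, and the filled points are all in the fit with the block.

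The spread between pairs differed among the members. The log2 ratio of 2 Gy to 0 Gy at 24 h in pairs 1 to 4 was -1.60, -1.55, -1.31 and -0.96 for *Cdc6*. For *Mcm10* it was -1.52, -1.22, -1.26 and -0.76. Both had their smallest ratio in pair 4. For *Orc1* it was -1.56, -1.42, -0.69 and -0.10, so that pairs 1 and 2 carried most of its difference. *Mcm7* had -0.38, -0.57, -0.30 and -0.35, and *Cdt1* had -0.48, -0.60, -0.29 and -0.48. The last gene overlapped widely between the groups as a whole but was lower in each pair. For *Mcm3*, *Mcm4*, *Mcm6*, *Mcm7* and *Cdt1* the ratio was lowest in pair 2, whose *Mcm4* and *Mcm6* ratios were -1.13 and -1.08.

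**Figure D4:**
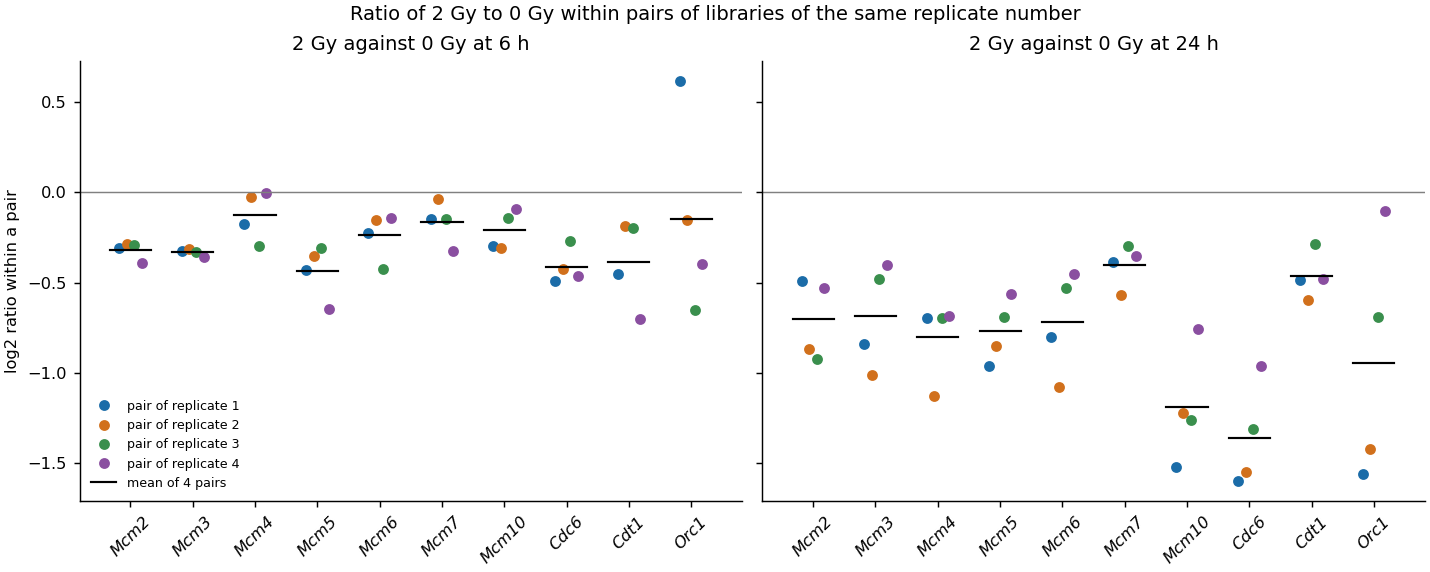
Log2 ratio of 2 Gy to 0 Gy for each licensing gene within the 4 pairs of libraries of the same replicate number, at 6 h and 24 h. At 24 h every point is below 0. At 6 h they lie between -0.70 (*Cdt1* in pair 4) and 0.62 (*Orc1* in pair 1).

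The proportions of the ring subunits differed by less than their spread for 5 of the 6 subunits, and *Mcm7* took a larger share after 2 Gy. As a share of the summed level per kb of *Mcm2* to *Mcm7* at 24 h, *Mcm4* made up 24.1% ± 2.7 (SD, n = 4) in mock-irradiated cells and 22.1% ± 2.8 after 2 Gy, and *Mcm6* 23.4% ± 1.9 and 22.8% ± 2. *Mcm3* (15.7% ± 1.1 and 15.6% ± 2.1), *Mcm5* (12.6% ± 2 and 11.8% ± 1.9) and *Mcm2* (7.48% ± 0.99 and 7.3% ± 0.37) likewise differed by less than their spread. The share of *Mcm7* was 16.8% ± 1.1 without irradiation and 20.4% ± 2.3 after 2 Gy, higher in 4 of 4 pairs. Its log2 difference from the mean of *Mcm2* to *Mcm6* was 0.13 ± 0.11 and 0.47 ± 0.19. Counts of *Mcm7* are less certain than those of the other subunits, because its exons share 64 bases with *Cops6* and 321 bases with *Ap4m1* on the other strand, and whether the counting used strand is not given in the sources used here. Both neighbours are expressed, with 66815 counts of *Cops6* and 13655 of *Ap4m1* over the 24 libraries against 31468 of *Mcm7*.

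The factors that load or activate the ring differed from it to unequal degrees. At 24 h, the log2 difference of *Mcm10* from the mean of *Mcm2* to *Mcm7* was -2.33 ± 0.0854 (SD, n = 4) in mock-irradiated cells and -2.84 ± 0.302 after 2 Gy. For *Cdc6* this difference from the ring was -2.29 ± 0.364 without irradiation and -2.97 ± 0.441 after 2 Gy. For *Orc1* it was -3.99 ± 0.486 and -4.26 ± 0.297, which differed by less than the spread and was higher after 2 Gy in pair 4 (-4.52 and -4.12). For *Cdt1* it was -1.80 ± 0.341 and -1.58 ± 0.342, closer to the ring after 2 Gy in 4 of 4 pairs, although by less than the spread between libraries. The log2 ratio of *Cdc6* to *Cdt1* was -0.34, 0.27, -1.39 and -0.52 in replicates 1 to 4 without irradiation and -1.46, -0.68, -2.42 and -0.999 after 2 Gy. It was lower in each irradiated library than in the control of the same number, but replicate 3 was so low in both groups that the groups overlapped. *Gmnn* encodes geminin, which inhibits CDT1, and the log2 ratio of *Cdt1* to *Gmnn* was 0.254 ± 0.292 and 0.263 ± 0.224.

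At 6 h, the same comparison asks how early a difference is seen. Each member again had a lower mean after 2 Gy, from 73.8% (*Mcm5*) and 74.7% (*Cdc6*) to 91.6% (*Mcm4*) of the mock-irradiated mean. For *Cdc6* the log2 fold change without a block was -0.42 with all libraries and -0.62 to -0.22 with 1 left out. For *Mcm4* it was -0.13 and -0.17 to -0.07. *Mcm5* had 34.0, 32.6, 31.1 and 37.0 CPM in mock-irradiated cells and 25.3, 25.5, 25.1 and 23.6 CPM after 2 Gy. Its groups did not overlap, nor did those of *Mcm2*, *Mcm3* and *Cdt1*, which makes 4 of 10 members compared with 0.732% of all genes. *Mcm4* by contrast had 55.4, 57.8, 64.7 and 52.5 CPM against 49.1, 56.7, 52.7 and 52.5 CPM, and its groups overlapped. All members but *Orc1* were lower in 4 of 4 pairs, 9 of 10 compared with 8.43% of all genes.

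At 6 h edgeR called no member in the fits of all libraries with or without the block. The log2 fold change without a block was between -0.13 for *Mcm4* and -0.44 for *Mcm5* (SE 0.0975), with 4 members at an unadjusted p under 0.05 (1.34% of all genes) and adjusted p of 1, and 0.0% of all genes were called lower. With the replicate block, 6 members had an unadjusted p under 0.05 (6.88% of all genes), the lowest adjusted p was 0.264 (*Mcm5*), and again 0.0% of all genes were called lower. DESeq2 called no member without the block (0.00333% of all genes called in either direction) or with it (0.223%). With the block and an offset for GC content and gene length, *Mcm3* (adjusted p = 0.0384) and *Mcm5* (adjusted p = 0.0217) were called lower, 2 of 10 members compared with 0.213% of all genes. The blocked fit without replicate 4 called *Mcm5* (adjusted p = 0.0455), 1 member compared with 0.217% of all genes.

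After 0.1 Gy, the low dose, at 24 h the mean CPM was between 80.2% (*Cdc6*) and 103.0% (*Cdt1*) of the mock-irradiated mean. *Mcm4* had 52.9, 49.0, 49.7 and 49.5 CPM after 0.1 Gy, all below the lowest mock-irradiated library at 54.5 CPM. *Mcm6* had 71.4, 58.9, 72.4 and 65.4 CPM, likewise below the lowest at 73.2 CPM. These were the 2 of 10 members without overlap, compared with 0.576% of all genes. *Mcm4*, *Mcm6*, *Mcm10* and *Cdc6* were lower in 4 of 4 pairs (4 of 10, compared with 15.7% of all genes). *Cdc6* had 7.15, 10.6, 6.77 and 6.90 CPM, between its levels at 0 Gy and 2 Gy in each replicate number.

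At 0.1 Gy no member was called by edgeR with or without the block. At 24 h the log2 fold change without a block ran from -0.33 (*Cdc6*, SE 0.228) to 0.03 (*Cdt1*), none had an unadjusted p under 0.05, and 0.0% of all genes were called lower. With the block the background was 4.5% of all genes, 2 members had an unadjusted p under 0.05 (*Mcm4* and *Cdc6*, compared with 28.1% of all genes), and the lowest adjusted p was 0.0988 (*Cdc6*). At 6 h the log2 fold change ran from -0.16 (*Mcm5*) to 0.01 (*Cdc6*), and none had an unadjusted p under 0.05 with or without the block, where 0.0% of all genes were called lower in either fit. DESeq2 called no member after 0.1 Gy, where it called 0.0% of all genes in either direction at both times without the block, and 5.88% at 24 h and 0.0% at 6 h with it. No member was without overlap at 6 h (0.265% of all genes), and *Mcm3* alone was lower in 4 of 4 pairs (6.58% of all genes).

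The doses were also compared with each other, with 0.1 Gy in the place of the control. At 24 h the level after 2 Gy was lower than after 0.1 Gy without overlap for 6 of 10 members (*Mcm2*, *Mcm4*, *Mcm6*, *Mcm10*, *Cdc6* and *Orc1*), compared with 1.01% of all genes. All but *Cdt1* were lower in 4 of 4 pairs, 9 of 10 compared with 7.37% of all genes. *Mcm2* had 31.4, 37.7, 40.2 and 34.9 CPM after 0.1 Gy, all above its highest level of 25.9 CPM after 2 Gy. The log2 fold change without a block ran from -0.34 (*Mcm7*) to -1.02 (*Cdc6*, SE 0.265) with a median of -0.63, but no member and 0.0% of all genes passed the test, although 8 members had an unadjusted p under 0.05 (1.34% of all genes). With the block, all 10 had an unadjusted p under 0.05 (4.94% of all genes) and adjusted p of 0.0709 to 0.615, and again 0.0% of all genes were called. DESeq2 called 3 members without the block, where it called 0.13% of all genes lower, and 7 with it (0.35%). Without replicate 3 the blocked edgeR fit called 8 members and 0.802% of all genes lower, and without replicate 4 it called 3 and 0.245%. At 6 h the groups of *Mcm3*, *Mcm5* and *Cdt1* did not overlap (3 of 10, compared with 0.438% of all genes). No member was called there with or without the block (5 and 2 members at an unadjusted p under 0.05, compared with 4.68% and 0.743% of all genes), and neither was any by DESeq2, and 0.0% of all genes were called lower in both edgeR fits.

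Between 6 h and 24 h, the libraries of all 10 members overlapped in mock-irradiated cells, where 7.22% of all genes were lower and 7.54% higher at 24 h without overlap. *Mcm6*, for example, had 69.7, 64.5, 100.5 and 73.8 CPM at 6 h, a range that holds all 4 of its values at 24 h. The edgeR fit without a block called no member at 0 Gy, where 6.7% of all genes were called in either direction, and 0 had an unadjusted p under 0.05 (24.7% of all genes). The largest difference was that of *Cdc6*, whose log2 fold change was 0.52 (SE 0.248, adjusted p = 0.236). At 0.1 Gy this fit called none either (background 9.9% in either direction, 1 member, *Cdt1*, at an unadjusted p under 0.05, compared with 26.5% of all genes), and neither did the fit with the block (25.7%, *Cdt1* at an adjusted p of 0.0644). With the offset for GC content and gene length and the block, *Cdt1* was called higher at 24 h (adjusted p = 0.0316), where 36.7% of all genes were called. It was also the 1 member whose libraries did not overlap between the times at 0.1 Gy. They were higher at 24 h, as were those of 9.34% of all genes. DESeq2 called no member at these doses, where it called 6.64% of all genes at 0 Gy and 8.48% at 0.1 Gy without the block, and 10.3% and 14.1% with it. After 2 Gy, *Mcm4* fell by 0.64 on the log2 scale between 6 h and 24 h (SE 0.113, adjusted p = 0.0155), the 1 member called without a block, compared with 3.92% of all genes called lower. It had 49.1, 56.7, 52.7 and 52.5 CPM at 6 h and 33.6 to 35.7 CPM at 24 h. The libraries of 5 members (*Mcm2*, *Mcm4*, *Mcm6*, *Mcm10* and *Orc1*) were lower at 24 h without overlap, compared with 8.98% of all genes. *Cdt1* went the other way in replicates 3 and 4 and overlapped widely. With the replicate block, *Mcm4* (adjusted p = 0.0109), *Mcm6* (-0.50, adjusted p = 0.0269) and *Mcm10* (-0.73, adjusted p = 0.0352) were called lower at 24 h, 3 of 10 members compared with 10.4% of all genes. This fit pairs the times by number, although the labels do not say that the times share it. Across genes, deviations from the group means at 2 Gy correlated between the times at 0.255, 0.828, 0.49 and 0.666 for replicates 1 to 4. Without replicate 2 or 4 this fit called no member, compared with 5.63% and 3.5% of all genes called lower. Without replicate 1 it called 1 (5.01%), and without replicate 3 it called 8 (16.1%). In the fit without a block, the call of *Mcm4* was lost without replicate 1 or 3 of the 6 h libraries and without replicate 1 or 4 of the 24 h libraries.

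Whether 2 Gy acted differently at the 2 times was tested as an interaction. Without a block no member was called, 0.0% of all genes were called lower, and 3 members had an unadjusted p under 0.05, compared with 4.9% of all genes (adjusted p of 0.819 to 0.989). DESeq2 without a block called none, compared with 0.0125% of all genes. With each replicate number at each time as a block, *Mcm4* (-0.67, SE 0.135), *Mcm10* (-0.95, SE 0.185) and *Cdc6* (-0.93, SE 0.187) had a larger decrease at 24 h than at 6 h on the log2 scale, each at an adjusted p of 0.0335. That is 3 of 10 members, compared with 3.23% of all genes. No member was called without replicate 1 or without replicate 2, where 0.0% of all genes were called lower. Without replicate 4, 2 members and 0.407% of all genes were called, and without replicate 3, 4 members and 11.3%. For *Cdt1* the difference between the times was -0.07 (SE 0.16, adjusted p = 0.81), and for *Mcm5* it was -0.32 (SE 0.134, adjusted p = 0.13).

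The other genes of licensing and origin firing were examined as 5 lists with 42 genes in all. At 24 h after 2 Gy, 22 of the 42 were called lower and 0 higher in the fit with the replicate block, compared with 6.69% of all genes called lower. The median log2 fold change was -0.471 for these genes, -0.735 for the members and 0.00448 for all genes. The calls depended on the replicate numbers included, as for the members, with 5, 2, 29 and 7 of the 42 called lower without replicates 1, 2, 3 and 4, where 0.68%, 0.376%, 16.4% and 0.875% of all genes were. Without the block none was called, and 16 of the 42 had an unadjusted p under 0.05 (3.59% of all genes). *Mki67* and *Top2a*, markers of dividing cells, fell by 1.61 and 1.26 on the log2 scale in the blocked fit (adjusted p = 0.00109 and 0.00144), and *Cdkn1a*, which encodes the inhibitor p21, rose by 0.57 (adjusted p = 0.00929). At 24 h after 0.1 Gy the blocked fit also called *Mki67* (-0.69, adjusted p = 0.0262) and *Top2a* (-0.44, adjusted p = 0.0279) lower, and *Cdkn1a* was at 0.22 (adjusted p = 0.175). This fit called 4.5% of all genes lower. Without replicates 2 and 4 it called 0.13% and 0.0987% of all genes in either direction. These 3 genes were not examined at either dose in the fits without a replicate number. Without the block none of the 3 was called by edgeR, with adjusted p of 0.274, 0.184 and 0.94 after 2 Gy and 0.943 for each after 0.1 Gy. Their part in the lower levels of the licensing genes was not tested.

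The remaining subunits of the origin recognition complex and proteins that act with it held 5 of 11 genes called lower, with a median of -0.34. *Orc2*, *Orc4* and *Orc6* fell by 0.48, 0.50 and 0.48, roughly as far as *Cdt1*, whereas *Orc3* and *Orc5* were not called (-0.21 and -0.28). Among this list *Rif1*, a regulator of replication timing, had the largest difference (-0.82, SE 0.133, adjusted p = 0.0115). *Gmnn* narrowly missed the threshold (-0.46, adjusted p = 0.0543). Of the other MCM genes, *Mcm8*, which acts in repair by recombination, was called (-0.51, adjusted p = 0.0424), while *Mcm9* (-0.16) and *Mcmdc2* (-0.14) were not.

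Factors that turn the loaded ring into an active helicase held 8 of 13 genes called lower, with a median of -0.54. *Ticrr*, needed to recruit CDC45, fell by 1.12 (adjusted p = 0.00546). It had 5.93, 8.90, 5.37 and 6.12 CPM in mock-irradiated cells and 3.13, 3.48, 2.45 and 2.93 CPM after 2 Gy, without overlap. *Cdc45*, which joins the ring in the active helicase, fell by 0.95 (adjusted p = 0.00935), and *Cdc7*, the kinase that triggers firing, fell by 0.88 (adjusted p = 0.0105), further than its partner *Dbf4* (-0.56, adjusted p = 0.0178). None of the 4 GINS subunits, also part of the active helicase, was called, with log2 fold changes of -0.13 to -0.48.

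Genes of licensing factor turnover held 5 of 11 called lower, with a median of -0.28. *Fbxo5*, an inhibitor of the ubiquitin ligase APC/C, fell by 1.44 (adjusted p = 0.00284), and had 7.81, 11.6, 8.97 and 10.04 CPM in mock-irradiated cells against 3.61, 3.75, 4.01 and 2.79 CPM. *Dtl*, which directs CDT1 to degradation in S phase, fell by 1.07 (adjusted p = 0.0104), and *Pcna* by 0.54 (adjusted p = 0.0342). The ligase scaffold *Ddb1* was near 0 (-0.0013, adjusted p = 0.995). Of 4 genes of cyclin E and CDK2, which act at the entry into S phase, 3 were called lower. *Ccne2* had 21.1, 34.3, 13.9 and 17.0 CPM without irradiation and 7.56, 9.28, 5.18 and 6.72 CPM after 2 Gy, a log2 fold change of -1.53 (SE 0.124, adjusted p = 0.00144), which was more than that of *Ccne1* (-0.76, adjusted p = 0.0333).

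**Figure D5:**
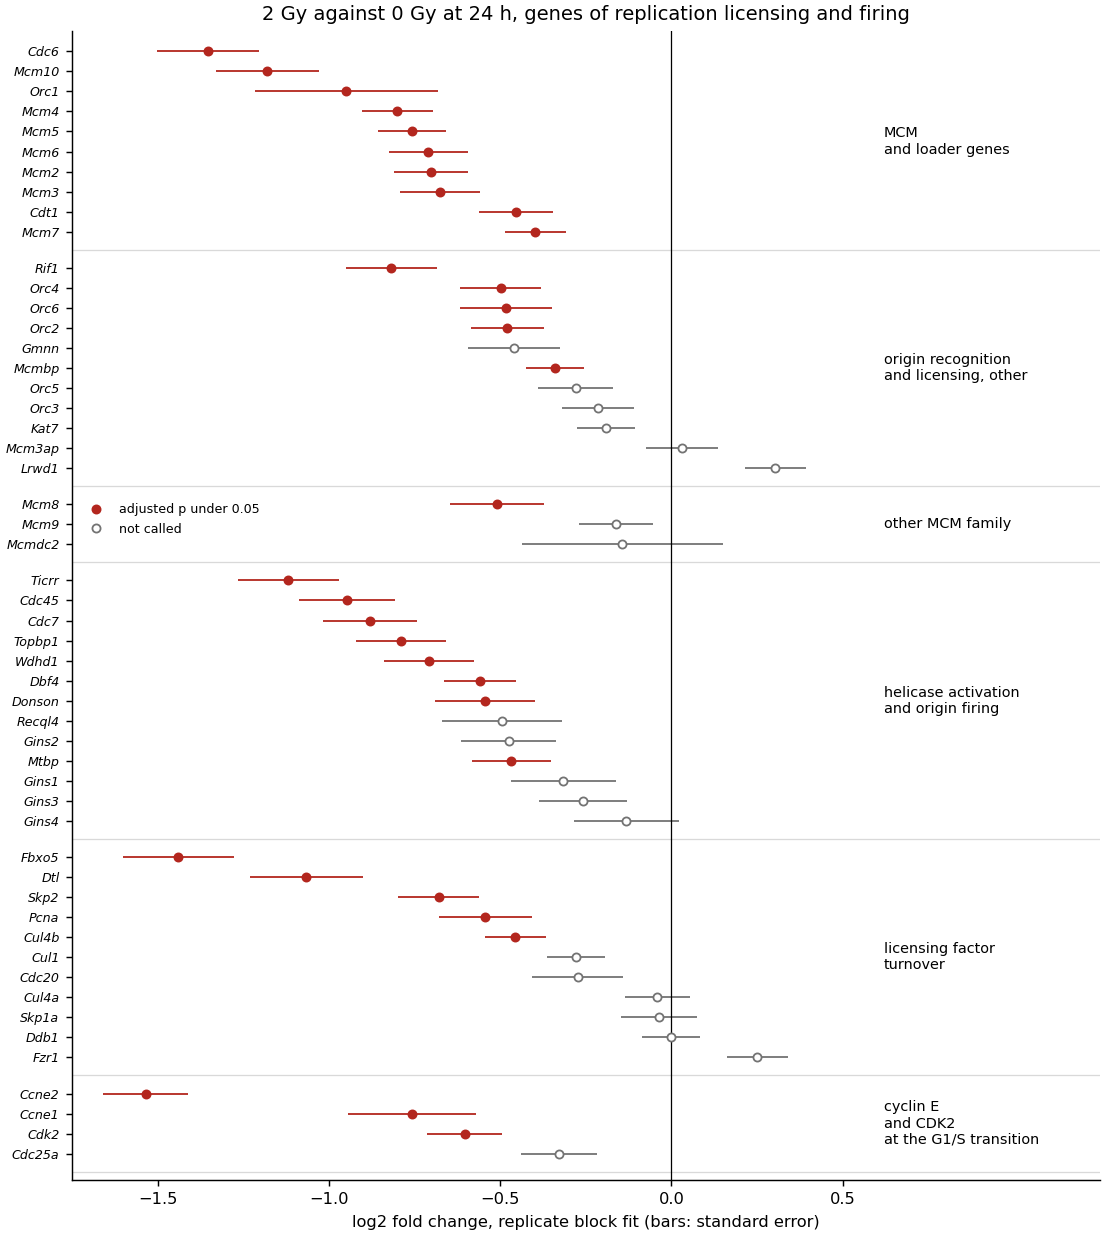
Log2 fold change of 2 Gy against 0 Gy at 24 h in the fit with the replicate block, for the licensing genes and the genes of 5 related lists, with bars for the standard error and filled points for genes at an adjusted p under 0.05. *Ccne2* (-1.53), *Fbxo5* (-1.44) and *Cdc6* (-1.35) lie furthest to the left.

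At 6 h after 2 Gy none of the 42 genes was called in either fit (5 at an unadjusted p under 0.05 without the block and 9 with it, compared with 1.34% and 6.88% of all genes), and their median was -0.08 compared with -0.28 for the members. After 0.1 Gy, 5 of 42 were called lower at 24 h with the block, compared with 4.5% of all genes, and none without it. Without replicate 2 or 4 the blocked fit called none of the 42 (21 and 16 genes in all). At 6 h none of 41 was called.

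Markers of other cell types were read beside these values. At 24 h after 2 Gy the blocked fit called 1 of 10 microglia markers lower and 2 higher, 1 of 12 astrocyte markers lower and 2 higher, 1 oligodendrocyte marker higher, and no marker of neurons, fibroblasts and vessels or neural progenitors, compared with 13.2% of all genes called in either direction. The median microglia sum was 1792 CPM in mock-irradiated cells and 1977 CPM after 2 Gy, and the astrocyte sum 3468 and 3578 CPM. The oligodendrocyte sum was 601 and 740 CPM, and the fibroblast and vessel sum 4914 and 4228 CPM. For neurons it was 556 and 522 CPM, and for neural progenitors 2031 and 2133 CPM. The share of counts from mitochondrial genes was 2.17%, 4.97%, 1.9% and 3.65% in replicates 1 to 4 of mock-irradiated cells and 0.95%, 2.09%, 1.91% and 2.18% after 2 Gy, and its part in the values of the members was not tested.

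The members varied together across libraries. Over the 24 libraries the Pearson correlation of log2 CPM between members was 0.239 to 0.954 in the 45 pairs, with a median of 0.674. After subtraction of the mean of each replicate number within a time, which leaves only differences between doses, it was 0.579 to 0.968, with a median of 0.89. Without this subtraction *Mcm10* was closest to the others, with a median of 0.807, and *Cdt1* was least like them, with 0.405. After it the medians were 0.923 for *Mcm3*, 0.916 for *Mcm10* and 0.761 for *Cdt1*. These libraries share the dose groups and replicate numbers, so the values describe this set alone. Of the 17343 other genes, those most correlated with the mean pattern of the 10 members over the 24 libraries (Pearson's r, each gene centred on its own mean log2 CPM) were *Cdc45* (0.941), *Uhrf1* (0.936), *Pclaf* (0.931), *Chaf1b* (0.928) and *Nsl1* (0.912).

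The position of the members in build GRCm38 is as follows, with the Ensembl identifiers of the count tables. *Mcm3* (ENSMUSG00000041859, chr1:20802968-20820312) and *Mcm6* (ENSMUSG00000026355, chr1:128331590-128359664) lie on the minus strand of chromosome 1. *Mcm10* (ENSMUSG00000026669, chr2:4989714-5012791), *Mcm7* (ENSMUSG00000029730, chr5:138164583-138172422), *Mcm2* (ENSMUSG00000002870, chr6:88883474-88898780) and *Mcm4* (ENSMUSG00000022673, chr16:15623897-15637400) are also on the minus strand. *Orc1* (ENSMUSG00000028587, chr4:108579423-108614833), *Mcm5* (ENSMUSG00000005410, chr8:75109569-75128439), *Cdt1* (ENSMUSG00000006585, chr8:122568015-122573554) and *Cdc6* (ENSMUSG00000017499, chr11:98907801-98923940) are on the plus strand. *Orc1* shares 376 exon bases with the antisense gene *Gm12743*, which had 440 counts over the 24 libraries against 1540 of *Orc1*.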

How the data were processed

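Polyadenylated RNA of 24 libraries was sequenced as paired reads in 1 run. The sequencing company trimmed, mapped and counted the reads per gene, and the authors deposited raw counts, 1 table per library, without normalization or pooling, with build mm10 named per the labels. The aligner, the counting tool and the use of strand are not given in the sources used here. Each table lists 49315 genes, of which 44823 have the same span in GENCODE M21. Total counts ranged from 14742855 to 38194800, which limits the precision of genes with few counts. Replicates of a group differed by more than sampling noise in all 36 pairs (lowest chi-square per degree of freedom 28.33).

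The tests were run with edgeR 4.0.16 in R 4.3.3 (TMM, filterByExpr, quasi-likelihood test, Benjamini-Hochberg adjustment over all genes tested), with the libraries of the groups compared and no block. Calls were made at an adjusted p under 0.05, with a minimum absolute log2 fold change of 1 as a second rule. Levels are CPM after TMM, with a prior count of 2 on the log2 scale. For single members, an exact two-sided permutation test went through all 70 divisions of 8 libraries. The labels do not say what a replicate number shares. Within a time, libraries of the same number deviated together from their group means, with correlations of 0.54 to 0.927 across genes in the dose comparisons, so the numbers were taken as pairs. Between the times the correlation was 0.0623 for replicate 3 at 0 Gy, 0.388 for replicate 3 at 0.1 Gy and 0.255 for replicate 1 at 2 Gy. For replicate 3 at 0 and 0.1 Gy a library of another number was closer (0.561 and 0.408).

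The alternatives were a replicate block, DESeq2 1.42.0 with and without the block, its size factors, library size alone, no filter on low counts, all 24 libraries in 1 fit, an offset fitted on GC content and on gene length by splines (5 degrees of freedom), and leaving out each replicate. For DESeq2, all genes are those with a p-value, without the filter on low counts (29803 for 2 Gy against 0 Gy at 24 h). Its shares therefore have a larger base than those of edgeR. The genes named are the 10 members, the genes of 5 hand-written pathway lists and the cell type markers, and the 5 genes most like the members. Members and lists were chosen with earlier results of these data known. Promoter sequences come from RefSeq, build GRCm38.p6.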

Additional observations from a re-analysis of the deposited data

Results flagged for a closer look

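A library far from the other 3 of its group was found in 5 of the 60 groups of 4 log2 CPM values tested (10 members in 6 groups), where chance gives about 1 in 20. *Mcm4* in replicate 3 at 0.1 Gy and 6 h was the highest, at 6.14 log2 CPM compared with 5.67 to 5.73 in the others. *Mcm7* in replicate 2 at 2 Gy and 6 h was also high, at 5.99 compared with 5.55 to 5.61. *Cdc6* was high in replicate 2 in 2 groups, at 2.84 compared with 2.09 to 2.21 (2 Gy, 6 h) and at 3.41 compared with 2.78 to 2.85 (0.1 Gy, 24 h). The libraries of replicate 2 are also those with the low microglia marker sums, and the part of this in the values of *Cdc6* and *Mcm7* was not tested. *Orc1* in replicate 1 at 2 Gy and 24 h was the lowest, at 0.0464 log2 CPM compared with 0.753 to 0.867. That value rests on 14 counts in the shallowest library.

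The effect of 2 Gy differed between 24 h and 6 h for 3 members in the fit with a block, by a log2 fold change of -0.668 for *Mcm4*, -0.954 for *Mcm10* and -0.926 for *Cdc6*, with the adjusted p at 0.0335 for each (edgeR). This fit called 3.23% of all genes lower. No member was called without a block, and the blocked fit called none without replicate 1 or without replicate 2.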

How the results depend on the processing

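After 2 Gy every member stayed lower than in mock-irradiated cells at 24 h and at 6 h under all alternatives run, except *Orc1* at 6 h, at 0.0217 in the blocked fit without replicate 3. The replicate block changed the number of calls at 24 h. Against 0 Gy, 0 members were called without a block, 10 with the replicate block, 4 by DESeq2, 10 by DESeq2 with the block, 4 with all 24 libraries in 1 fit and 9 with the GC content and gene length offset and the block, where 0.0%, 13.2%, 0.346%, 7.78%, 0.622% and 2.85% of all genes were called in either direction. The blocked fit called 2 with a minimum log2 fold change of 1 (0.812% of all genes), and 1 to 10 when a replicate number was left out (0.432% to 33.1%). At 6 h the offset with the block called 2 members (0.971% of all genes), and leaving out a number from the block 0 to 1 (0.0% to 0.799%). Between 2 Gy and 0.1 Gy at 24 h, DESeq2 called 3, DESeq2 with the block 7, all libraries in 1 fit 2 and the offset with the block 6 (0.13%, 0.367%, 0.0864% and 0.701% of all genes), and the blocked fit 0 to 8 when a number was left out (0.0% to 1.0%).

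Between 24 h and 6 h at 2 Gy, 1 member was called in the fit without a block, 3 each with the replicate block, by DESeq2 and with all libraries in 1 fit (19.2%, 7.06% and 14.7% of all genes), 4 by DESeq2 with the block (11.4%) and with the offset and the block (29.5%), and 0 with the minimum fold change (3.61% of all genes), as with the block (0 members, 7.09%). Leaving out a library gave 0 to 3, and a number from the block 0 to 8. At 0 Gy the block alone called none (*Cdc6* had an unadjusted p of 0.0155 and an adjusted p of 0.0757), the offset with the block called 2 (*Cdc6* and *Cdt1*, with 27.6% of all genes), and leaving out a number 0 to 2 (*Cdc6* and *Mcm7* without replicate 3, with 45.4% of all genes). The offset with the block called 1 at 0.1 Gy. In mock-irradiated cells the correlation of deviations between the times was 0.41, 0.825 and 0.518 for replicates 1, 2 and 4 but 0.0623 for replicate 3, so the numbers were not taken as pairs there. The interaction had 3 calls with the block (6.78% of all genes), 4 with DESeq2 and the block (7.7%), 4 with the offset and the block (1.68%), 0 with the minimum fold change in the blocked fit (1.2% of all genes), and 0 to 4 when a number was left out (0.0% to 23.4%). The cause of these differences was not tested.

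After 0.1 Gy, no member was called, and directions turned where the log2 fold change was near 0. At 24 h, library size alone gave 0.0645 for *Mcm2*, 0.0154 for *Mcm3*, 0.0683 for *Mcm5* and 0.0351 for *Mcm7*, no filter gave 0.00602 for *Mcm2* and 0.00993 for *Mcm5*, DESeq2 with the block gave 0.00402 for *Mcm5*, and the offset gave -0.183 for *Cdt1* (-0.187 with the block). At 6 h, DESeq2 gave 6.1e-05 for *Mcm6* and 0.00254 for *Mcm10* (0.0028 with the block), its size factors gave 0.00338 for *Mcm10*, no filter gave 0.00485 for *Mcm6* and 0.0124 for *Mcm10*, and the offset gave -0.0182 for *Cdc6* (-0.00524 with the block). Leaving out a library gave, at 24 h, -0.113 to 0.144 for *Mcm2*, -0.121 to 0.0275 for *Mcm3*, -0.104 to 0.166 for *Mcm5*, -0.157 to 0.0618 for *Mcm7* and -0.0966 to 0.284 for *Cdt1*. At 6 h it gave -0.137 to 0.0399 for *Mcm4*, -0.229 to 0.144 for *Mcm6*, -0.102 to 0.0186 for *Mcm7*, -0.0876 to 0.0497 for *Mcm10*, -0.134 to 0.221 for *Cdc6* and -0.273 to 0.0763 for *Orc1*. Depth limits *Orc1* most, with 14 to 97 counts per library, followed by *Cdc6* and *Mcm10* with at least 41.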

Other observations

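The ring genes and *Mki67*, a marker of dividing cells, did not keep 1 ratio. The log2 difference of the mean of *Mcm2* to *Mcm7* from *Mki67* was -1.43, -1.41, -0.0705 and -1.53 in replicates 1 to 4 of mock-irradiated cells at 24 h, and -0.3, -0.583, 0.811 and -0.65 after 2 Gy. Replicate 3 had the lowest *Mki67* in both groups (59.3 and 21.2 CPM) and the highest ring level in both (5.82 and 5.22 log2 CPM). In each of the 4 pairs the difference was higher after 2 Gy than in mock-irradiated cells. At 6 h the same difference was -0.879 ± 0.532 (SD, n = 4) in mock-irradiated cells and -1.07 ± 0.202 after 2 Gy.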
